A study of Mus musculus with 24 samples.

Results

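The effect of a DNMT1 knockout on the mouse liver transcriptome was compared between 2 ages, to see which changes present at week 8 were still present at week 20. The measure is the interaction of genotype and age, the knockout minus control difference at week 20 less the same difference at week 8, taken from 16 of the 24 arrays of the series. These are 4 arrays of DNMT1 knockout livers at week 8, 4 of control livers at week 8, 4 of DNMT1 knockout livers at week 20 and 4 of control livers at week 20. The other 8 arrays, 4 knockout and 4 control livers at week 4, were used as a separate way of choosing genes. They also entered the probe filter and the shared estimate of spread behind the p-values. Total RNA was hybridised to an Illumina mouse expression array, and 10728 genes could be tested. The labels give the tissue, genotype and week. The strain, the sex and the way the gene was deleted are not given in the sources used here, nor is it said that the 4 arrays of a group are separate animals. The spread behind each p-value is that between arrays and may be technical.

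DNMT1 is the maintenance DNA methyltransferase, which copies methylation marks onto the new strand when DNA is replicated, with UHRF1 guiding it to half-methylated sites. Cells that divide without it lose methylation, and genes that are kept silent by methylated promoters in body cells, such as many genes of the germ line, can then be transcribed. The liver renews itself slowly and mostly from hepatocytes, and after injury it can switch on fetal and cell division genes while it lowers the genes of mature hepatocyte metabolism.

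Values are intensities on a linear scale whose form is that of background-subtracted, quantile-normalized data, printed per array in the order of the replicate numbers. Background reached up to an intensity of 16.37. Differences are on the log2(intensity + 16) scale, given ± SE, and understate the change of genes near background. Where no array of one group was above background, the fold is given as a lower bound against that threshold. Adjusted p-values come from limma over all 10728 genes, with a threshold of 0.05.

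Dnmt1 itself read 87.3, 70.4, 75.3 and 76.1 on the knockout arrays at week 8 and 104, 88.3, 101 and 102 on the control arrays, which did not overlap. At week 20 it read 40.5, 37.9, 69.5 and 60.4 in knockout and 83.1, 67.6, 100.3 and 87.4 in control livers, with 1 knockout value above 1 control value. The difference was -0.30 ± 0.19 at week 8 (exact permutation p = 0.0286, two-sided, the smallest that 4 against 4 arrays can give) and -0.58 ± 0.19 at week 20 (exact permutation p = 0.0571), and the interaction of -0.28 ± 0.27 did not pass the threshold (limma adjusted p = 0.473). The permutation p-values are for this gene alone and are not adjusted over the genes tested. By limma the week 8 difference did not pass. Without control arrays 3 and 4 of week 20 the week 20 difference was -0.45 and did not pass (limma adjusted p = 0.358). Whether the probe lies inside the deletion is not known here, so the Dnmt1 values do not measure how much of the deletion was present at either age.

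Some arrays stood apart from their group. Control arrays 3 and 4 of week 20 had mean log2 values of 12.1 and 11.97 over the 30 measured acute phase genes, against 10.2 and 10.1 on control arrays 1 and 2. Knockout array 4 of week 8 read -10.8 for Eif2s3y, a gene of the Y chromosome, and the other 3 knockout arrays of its week read 544 to 600. The same array read 131 for Xist, against 33.6 to 42.7. Single genes described in full that change class without those control arrays are given with and without them. Between replicates of a group the correlation of log2 values over genes was 0.964 to 0.987. The labelled tissue fitted its markers: the summed intensity of 6 hepatocyte markers was 98480 to 108800 in knockout and 103500 to 111900 in control livers at week 8, and 99100 to 112300 in knockout and 82770 to 113900 in control livers at week 20.

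Most of the knockout effect was gone by week 20. At week 8, 2669 genes were higher in knockout (24.9% of those tested) and 2577 lower (24.0%). At week 20 the counts were 369 higher (3.44%) and 239 lower (2.23%). Without control arrays 3 and 4 of week 20 they were 194 and 112. Leaving out 1 array of week 20 moved them by over 1.5 times in 5 cases. The counts were 181 higher and 103 lower without control array 3, 206 and 100 without control array 4, 220 and 111 without knockout array 2 and 236 and 134 without knockout array 3, and 151 were lower without knockout array 1. The groups did not overlap for 2417 higher (22.5%) and 2294 lower genes (21.4%) at week 8, and for 606 higher (5.65%) and 482 lower genes (4.49%) at week 20. The interaction passed the threshold in 3341 genes (31.1%), of which 1525 were positive (14.2%) and 1816 negative (16.9%).

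The move came from the knockout livers. Between the 2 ages 2230 genes rose (20.8%) and 2385 fell (22.2%) in knockout livers. In control livers 3 genes changed (0.028%), which were Acin1, Calml4 and LOC56628, and 957 had an unadjusted p under 0.05. For the 1366 genes that were at least 2-fold higher in knockout at week 8, the median change between weeks was -1.38 in knockout livers and 0.092 in control livers. For the 733 genes at least 2-fold lower, it was 1.12 in knockout and -0.15 in control livers.

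The 2099 genes of at least 2-fold change at week 8 were sorted by what was left at week 20. An effect was called faded to within 2-fold when the interaction passed toward 0, the week 20 difference did not pass and its 95% interval lay inside 2-fold. It was called faded with an unresolved end point when that interval reached beyond 2-fold, faded in part when the week 20 difference still passed in the same direction, and persisted when the interaction did not pass and the week 20 difference did. Of the 1366 genes higher at week 8, 807 (59.1%) faded to within 2-fold, 233 faded with an unresolved end point, 87 (6.37%) faded in part, 7 turned to the opposite sign and 56 (4.10%) persisted. Of the 733 genes lower at week 8, 465 (63.4%) faded to within 2-fold, 98 faded with an unresolved end point, 14 (1.91%) faded in part, 7 turned and 33 (4.50%) persisted. For 176 of the higher and 116 of the lower genes neither test passed, so they remain undecided. An interaction away from 0 passed in 0 of the 2099 genes by limma, and at an unadjusted p under 0.05 in 1 gene of each direction. Just inside the size limit lay Ulk1, with a difference of -1.0 at week 8 and 0.56 at week 20, and just outside it, equal after rounding, Dtd1, with -0.02 at week 20.

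**Figure D1:**
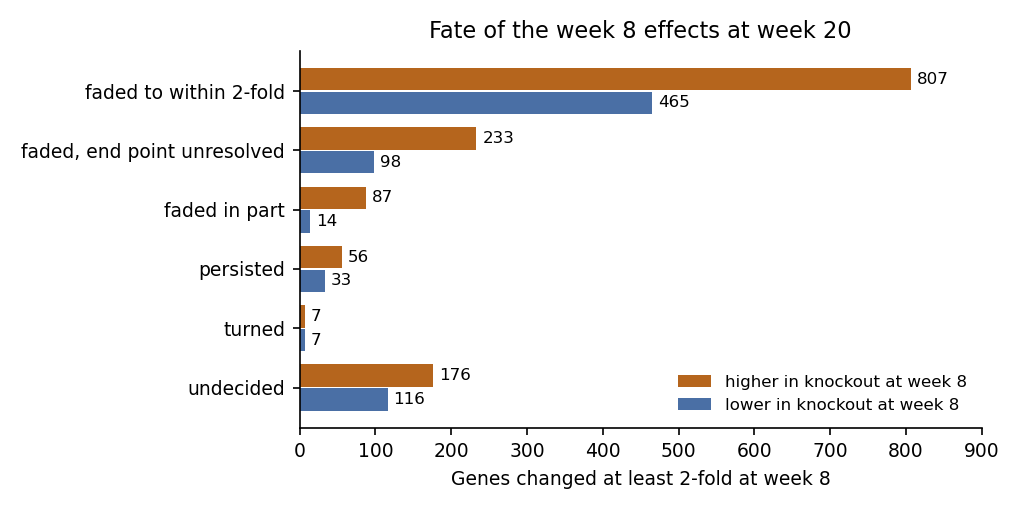
Number of genes in each class of week 8 effect at week 20, for genes at least 2-fold higher (upper bar of each pair) or lower (lower bar) in knockout than in control livers at week 8. The longest bars are the 807 higher and 465 lower genes that faded to within 2-fold, and the persisted class holds 56 and 33 genes.

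The share of the week 8 effect kept at week 20, the ratio of the 2 log2 differences, had a median of 13.1% for the higher genes (quartiles -1.57% to 28.8%) and 7.82% for the lower genes (quartiles -9.68% to 26.3%). On single knockout arrays of week 20 the median share was 17.2%, 10.6%, 8.12% and 16.6% for the higher genes and 12.3%, 4.84%, 1.51% and 10.2% for the lower ones. The knockout arrays of week 8, whose shares centre on 100% by construction, ranged over 90.7% to 108% for the higher and 85.7% to 110.5% for the lower genes. The medians without control arrays 3 and 4 of week 20 were 17.97% and 16.3%.

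The interaction contains the week 8 difference that chose these genes, and a choice for large values at week 8 favours a fall afterwards. A choice by the week 4 arrays, which enter neither difference, gave similar shares. At week 4, 1586 genes were higher (14.8%) and 1331 lower (12.4%) in knockout. Of the 590 genes at least 2-fold higher at that age, 468 (79.3%) had an interaction from week 8 to 20 that passed toward 0 and 7 one that passed away from it, and the median share kept was 12.6%. Of the 307 genes at least 2-fold lower at week 4, 213 (69.4%) passed toward 0 and 4 away from it, and the median share was 8.27%. The calls of week 20 were partly those of week 8: 197 of the 369 higher genes were also higher at week 8 (53.4% of the week 20 list and 7.38% of the week 8 list), and 115 of the 239 lower genes were also lower (48.1% and 4.46%).

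**Figure D2:**
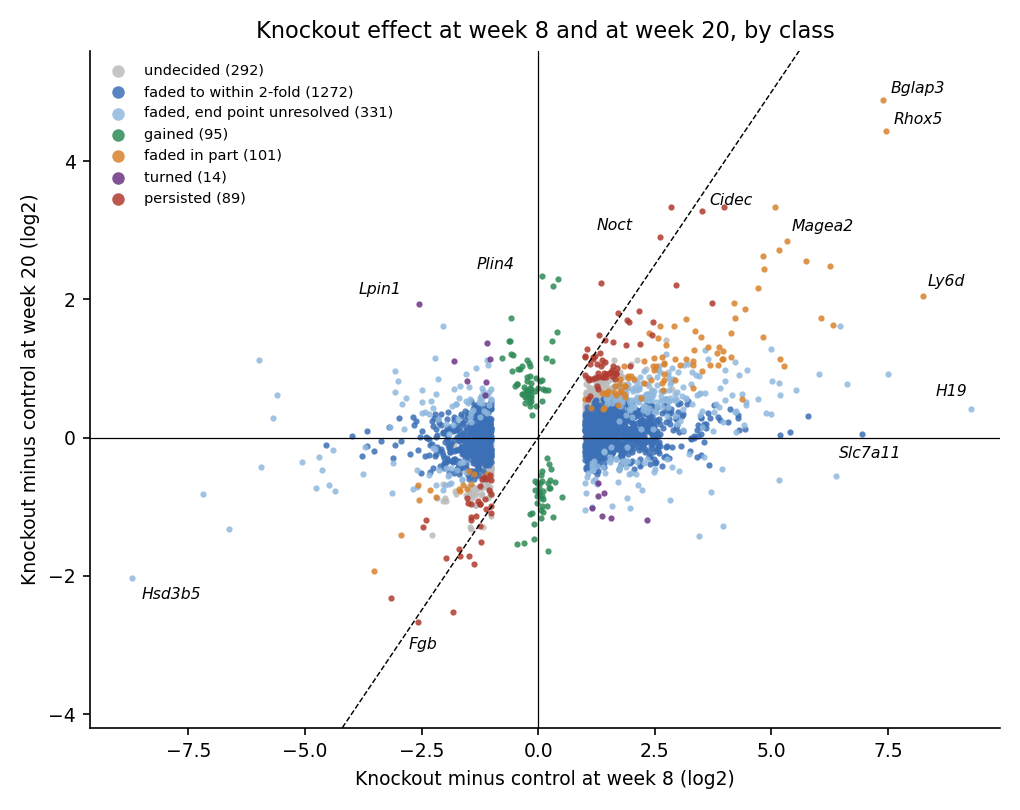
Knockout minus control difference of each classified gene at week 8 (x axis, log2) and week 20 (y axis, log2), coloured by class, with equal effects on the dashed line. Most points lie near a week 20 difference of 0, while Rhox5, Bglap3, Magea2 and Ly6d keep part of their week 8 difference and Noct, Cidec and Fgb lie close to the dashed line.

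Of the 87 higher genes that faded in part, 16 (18.4%) were at background on all control arrays of both ages, beside 157 (19.4%) of those that faded to within 2-fold and 10 (17.9%) of those that persisted. The share was 26.7% for undecided higher genes and 6.22% for higher genes under 2-fold at week 8. Such genes pass the filter on dim probes only through knockout or week 4 arrays, so these shares are partly built in and do not set the classes apart. Rhox5, a homeobox gene of the X chromosome expressed in germ line support cells and a standard reporter of lost promoter methylation, was among the genes that faded in part. Its RefSeq promoter window, with those of Tex19.1 and Slc7a11, is printed here from 250 bases before to 50 after the gene start in assembly GRCm38.p6, 5′ to 3′ on the gene's strand. They are shown because Rhox5 and Tex19.1 kept part of their effect and Slc7a11 kept none. Capitals mark each CG, the dinucleotide that DNMT1 acts on, which reads the same on both strands.
Rhox5, chrX:37754358-37754657, plus strand: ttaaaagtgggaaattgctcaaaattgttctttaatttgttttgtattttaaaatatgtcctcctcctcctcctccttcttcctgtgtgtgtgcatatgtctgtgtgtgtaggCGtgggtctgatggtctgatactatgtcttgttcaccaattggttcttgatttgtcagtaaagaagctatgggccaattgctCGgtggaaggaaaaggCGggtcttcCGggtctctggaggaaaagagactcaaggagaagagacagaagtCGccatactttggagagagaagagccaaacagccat
Tex19.1, chr11:121145893-121146192, plus strand: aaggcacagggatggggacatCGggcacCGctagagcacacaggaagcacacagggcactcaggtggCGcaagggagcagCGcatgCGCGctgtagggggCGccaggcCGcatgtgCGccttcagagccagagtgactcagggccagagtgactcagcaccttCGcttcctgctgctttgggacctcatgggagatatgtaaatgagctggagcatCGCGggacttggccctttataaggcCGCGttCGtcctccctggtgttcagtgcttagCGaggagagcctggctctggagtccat
Slc7a11, chr3:50443564-50443863, minus strand: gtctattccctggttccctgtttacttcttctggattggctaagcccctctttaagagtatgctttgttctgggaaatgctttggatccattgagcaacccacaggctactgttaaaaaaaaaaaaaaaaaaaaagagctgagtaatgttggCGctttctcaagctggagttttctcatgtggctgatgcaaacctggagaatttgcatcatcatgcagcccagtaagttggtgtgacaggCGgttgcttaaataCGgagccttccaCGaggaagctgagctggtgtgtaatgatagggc
The windows hold 5, 16 and 4 CGs in that order. Among all 32851 RefSeq windows of this length 94.6% hold at least 1 CG, and 62.0%, 33.0% and 68.6% hold at least that many. No methylation was measured here. Windows were found for 8200 of the tested genes (76.4%), under the 80% needed to compare CG content between classes, so no such comparison is given.

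Rhox5 read 5688, 2324, 5269 and 2254 on the knockout arrays at week 8, against -0.21, 20.8, -3.76 and 1.39 on the control arrays. Week 20 readings were 455, 427, 624 and 354 in knockout livers and -1.54, 3.41, 12.5 and 9.40 in control livers. The groups were far apart at both ages, and the mean knockout intensity at week 20 was 8.35-fold below that at week 8. The difference was 7.47 ± 0.28 at week 8 and 4.44 ± 0.28 at week 20, where it was still at least 27.8-fold, and the interaction was -3.03 ± 0.40 (limma adjusted p = 4.17e-06).

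Magea2, a cancer-testis antigen gene of the X chromosome, followed the same course. It read 1415, 491, 1242 and 497 in knockout livers at week 8, against -2.23, 2.35, 7.48 and 9.16 in control livers. At week 20 the knockout arrays read 78.3, 138, 162 and 266 and the control arrays 5.63, 6.45, 8.90 and 6.36, with no overlap. The knockout was at least 49.4-fold higher at week 8 and at least 8.97-fold higher at week 20, with an interaction of -2.49 ± 0.44 (limma adjusted p = 1.15e-04). Its family member Magea5 differed by 4.85 ± 0.30 at week 8 and 2.44 ± 0.30 at week 20. Probes of such near-identical genes may read each other's transcripts.

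Tex19.1, a germ cell gene that holds transposons in check, lost more. Its values were 1981, 1016, 2817 and 706 in knockout and -2.90, -2.79, 9.38 and -1.87 in control livers at week 8. At week 20 they were 17.4, 45.4, 45.2 and 38.3 in knockout and -1.87, 2.23, -6.14 and -8.19 in control livers. The knockout arrays stayed above every control array, but the bound of the fold was 2.09 at week 20 and 86.4 at week 8, with an interaction of -4.69 ± 0.43 (limma adjusted p = 2.98e-08). Dpep3, a membrane dipeptidase of the testis, was higher by 4.72 ± 0.36 at week 8 and 2.17 ± 0.36 at week 20. Tex19.2, the sister gene of Tex19.1, differed by 5.54 ± 0.35 at week 8 and by 0.68 ± 0.35 at week 20, where it did not pass (limma adjusted p = 0.267), and Asz1, a germ cell gene of the piRNA pathway, behaved alike with 4.25 ± 0.37 and 0.39 ± 0.37.

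Of 22 measured germline genes, 15 were higher and 1 lower in knockout at week 8, and 5 were higher at week 20, namely Rhox5, Magea2, Magea5, Dpep3 and Tex19.1. All 5 faded in part. The list holds 43 genes, and one silent in control livers could be measured only if knockout arrays raised it above background. The share of higher genes is therefore partly set by the filter. The interaction was negative in 11 and positive in 1, and the median difference was 1.68 at week 8 and 0.13 at week 20, beside -0.067 and 0.00073 over all genes tested. The mean log2 value of the list was 7.41, 6.67, 7.43 and 6.41 on the knockout arrays of week 8 and 5.25, 5.44, 5.51 and 5.396 on those of week 20, against 4.63 to 4.79 in control livers at week 8 and 4.51 to 4.90 at week 20. Knockout arrays 1 and 3 of week 8 lay above arrays 2 and 4, and all 4 arrays of week 20 lay between those and the controls.

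Bglap3, a relative of the bone protein osteocalcin, read 6303, 2464, 4207 and 2036 in knockout and 6.81, 12.6, -2.03 and -3.00 in control livers at week 8. The week 20 readings were 317, 480.5, 685 and 550.3 in knockout and -3.51, 4.59, 0.087 and -0.033 in control livers, at least 29.9-fold higher, after at least 208-fold at week 8. The interaction was -2.51 ± 0.38 (limma adjusted p = 1.84e-05) and did not pass after a second quantile normalization with a floor of 1 (adjusted p = 0.185). Ly6d, a membrane protein of the LY6 family found on lymphoid precursors and in skin, read 7133, 6238, 9598 and 5429 in knockout and 9.94, 4.58, 3.48 and 9.67 in control livers at week 8. Its week 20 values were 222, 81.7, 157 and 192 in knockout and 9.81, 15.04, 37.2 and 51.8 in control livers, so that a difference of 8.26 ± 0.34 became 2.05 ± 0.34 without overlap of the groups.

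Gsta1, a glutathione transferase induced by oxidative and chemical stress, shows how a week 20 call can hang on 2 control arrays. It read 15060, 10850, 12660 and 9484 in knockout and 107, 88.4, 392 and 440.1 in control livers at week 8. By week 20 it read 2133, 819, 1295 and 1020 in knockout and 1000, 704, 64.7 and 17.7 in control livers, and control array 1 lay above 1 knockout array. The week 20 difference was 2.56 ± 0.76 (limma adjusted p = 0.0479) and 0.55 without control arrays 3 and 4 (adjusted p = 0.705). Pkd1l2, a polycystin family gene, and Gpnmb, a glycoprotein of lipid-laden macrophages, also faded in part, but other probes of both genes were not called at week 20. The second Gpnmb probe differed by 2.14 at week 8 and by -0.11 at week 20.

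Over the 87 higher genes that faded in part, the median difference was 2.75 at week 8 and 1.06 at week 20, and 81 of them (93.1%) were already higher at week 4, against 535 of the 807 (66.3%) that faded to within 2-fold. The latter had a smaller median week 8 difference of 1.57, and smaller effects are called less easily. Of the higher genes that persisted 36 (64.3%) were higher at week 4. The mean difference of the 87 genes on single knockout arrays was 2.09 to 2.42 at week 4, 2.96 to 3.43 at week 8 and 1.15 to 1.35 at week 20. Without control arrays 3 and 4 of week 20, 50 of the 87 kept this class, and Rhox5, Magea2, Tex19.1, Bglap3 and Ly6d were among them.

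**Figure D3:**
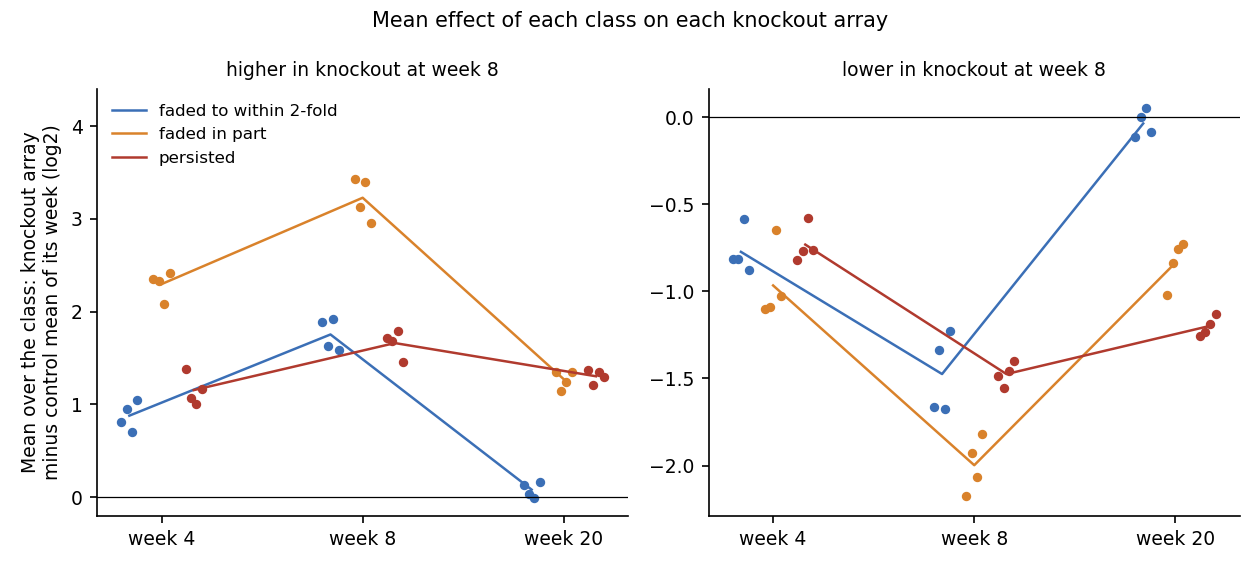
Mean knockout minus control difference of 3 classes on each knockout array at weeks 4, 8 and 20 (log2, each point 1 array against the control mean of its week, lines join the means), for genes higher (left) and lower (right) at week 8. The classes were formed with the arrays of weeks 8 and 20. The class that faded to within 2-fold lies near 0 at week 20, while both other classes lie 1.15 to 1.37 above 0 on the left and 0.73 to 1.25 below it on the right.

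Many large week 8 effects were gone at week 20. Slc7a11, the cystine transporter that feeds glutathione synthesis and a target of NRF2 and ATF4, read 2147, 1658, 2929 and 1396 in knockout livers at week 8, against -12.7, -4.35, -5.48 and -14.9 in control livers. At week 20 it read -0.87, -3.60, -3.50 and 6.08 in knockout and 0.94, -8.78, -2.99 and 1.78 in control livers. No array of week 20 was above background in either genotype. The knockout was at least 119-fold higher at week 8, and the difference was 0.057 ± 0.29 at week 20, with an interaction of -6.89 ± 0.41 (limma adjusted p = 2.12e-11).

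Of 8 fetal liver genes with at least 2-fold change at week 8, 4 faded to within 2-fold and 4 had an unresolved end point. H19, an imprinted noncoding RNA that is abundant in fetal liver, read 7282, 10920, 8081 and 17680 in knockout and -1.13, -2.66, 1.77 and 0.83 in control livers at week 8. Its week 20 values were 21.4, 1.75, 3.07 and 23.1 in knockout and 5.08, -2.47, 10.8 and 0.99 in control livers. It was at least 631-fold higher at week 8, while 2 knockout arrays of week 20 were barely above background, with a difference of 0.42 ± 0.39 (limma adjusted p = 0.575). Igf2, the fetal growth factor that shares its imprinted locus with H19, read 4345, 5716, 2232 and 24710 in knockout and 38.1, 4.61, 25.8 and 11.2 in control livers at week 8. Its week 20 values were 47.7, 48.2, 93.0 and 39.1 in knockout and 18.4, 32.7, 17.4 and 17.7 in control livers. All 4 knockout values of week 20 stayed above the control values, but the difference of 0.93 ± 0.46 did not pass (limma adjusted p = 0.25). For both genes knockout array 4 of week 8, the one without Y-linked signal, was the highest.

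Gpc3, a fetal glypican that also marks liver cancer, read 1177, 959, 1355 and 723 in knockout and 16.2, 7.36, 14.9 and 12.1 in control livers at week 8. At week 20 the values were 21.1, 15.8, 5.03 and 11.1 in knockout and -5.62, 25.9, 11.1 and 16.9 in control livers, with full overlap. The week 20 difference was 0.043 ± 0.39, and without control arrays 3 and 4 it was 0.15 with an unresolved end point. Igf2bp3, a fetal RNA-binding protein, read 524, 345, 345 and 342 in knockout and 8.18, 2.14, 6.38 and 1.93 in control livers at week 8, and no array of week 20 was above background. Neither gene had been called at week 4, where the differences were -0.20 ± 0.39 for Gpc3 and 0.29 ± 0.18 for Igf2bp3, so both were called at week 8 and at neither other age. Of 13 measured fetal liver genes 7 were higher and 2 lower at week 8, and 0 were called at week 20 by limma, where 2 had an unadjusted p under 0.05, both lower. The imprinted genes had 10 of 13 higher and 1 lower at week 8 and 0 called at week 20, where 4 had an unadjusted p under 0.05. Over all genes tested 3.44% were higher and 2.23% lower at week 20. A count of 0 or 1 at week 20 in a list lies near those shares. At week 8 the shares over all genes tested were 24.9% higher and 24.0% lower, and the interaction was positive in 14.2% and negative in 16.9%. Every list count in this text is to be read beside these shares.

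Cell division genes had smaller knockout effects at week 20. Ccnb1, the cyclin that drives entry into mitosis, read 163, 235, 179 and 324 in knockout and -10.8, -1.73, 7.21 and 4.98 in control livers at week 8. The week 20 readings were 5.27, 8.34, 4.10 and 20.6 in knockout and -5.32, 4.46, 11.5 and -2.40 in control livers, and only 1 of these 8 arrays was above background. Its week 20 difference was 0.35 ± 0.29, and without control arrays 3 and 4 it was 0.46 with an unresolved end point. All 17 measured genes of mitosis and G2/M were higher in knockout at week 8, and 1 at week 20, which was Birc5, the survivin gene, with 3.32 ± 0.30 at week 8 and 1.10 ± 0.30 at week 20. At an unadjusted p under 0.05, 5 were higher and 0 lower at week 20. The mean log2 value of these genes was 7.53 to 8.45 in knockout and 4.94 to 5.16 in control livers at week 8, and 5.48 to 5.71 in knockout and 4.89 to 5.18 in control livers at week 20, with no overlap at either age. The interaction was negative in 15, and of 16 genes with at least 2-fold change at week 8, 6 faded to within 2-fold, 7 had an unresolved end point and 1 faded in part. The median difference was 3.08 at week 8 and 0.55 at week 20. The mitosis list holds 30 genes, and those dim on nearly all arrays, knockout arrays included, were not measured. Of 30 genes of DNA replication and G1/S, 24 were higher at week 8 and 2 at week 20. Uhrf1, the partner of DNMT1 at replicating DNA and itself a proliferation-linked gene, read 352, 290.1, 353 and 290.2 in knockout and 27.3, -1.29, 18.4 and 17.5 in control livers at week 8, and 23.6, 23.6, 36.4 and 16.3 in knockout and 4.49, 10.7, 37.1 and 42.9 in control livers at week 20. Its week 20 difference was 0.16 ± 0.38, and without control arrays 3 and 4 it was 0.79 with an unresolved end point (limma adjusted p = 0.351).

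The cell cycle inhibitor p21, encoded by the p53 target Cdkn1a, was higher at week 8 as well. Its values were 3686, 2110, 3975 and 1135 in knockout and 197, 353, 168 and 58.7 in control livers at week 8. At week 20 they were 349.6, 59.2, 209 and 115 in knockout and 13.8, 70.2, 289 and 764 in control livers, which overlapped in full, and control arrays 3 and 4 were the 2 highest controls. The week 20 difference was 0.10 ± 0.66 and 1.73 without those arrays, and neither passed (limma adjusted p = 0.955 and 0.11). Of 26 measured p53 targets 18 were higher and 3 lower at week 8, 12 had a negative and 2 a positive interaction, and 0 were called at week 20 by limma, with 5 higher and 2 lower at an unadjusted p under 0.05. Cdkn2b, the INK4 inhibitor p15, differed by 2.93 ± 0.25 at week 8 and 0.63 ± 0.25 at week 20.

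**Figure D4:**
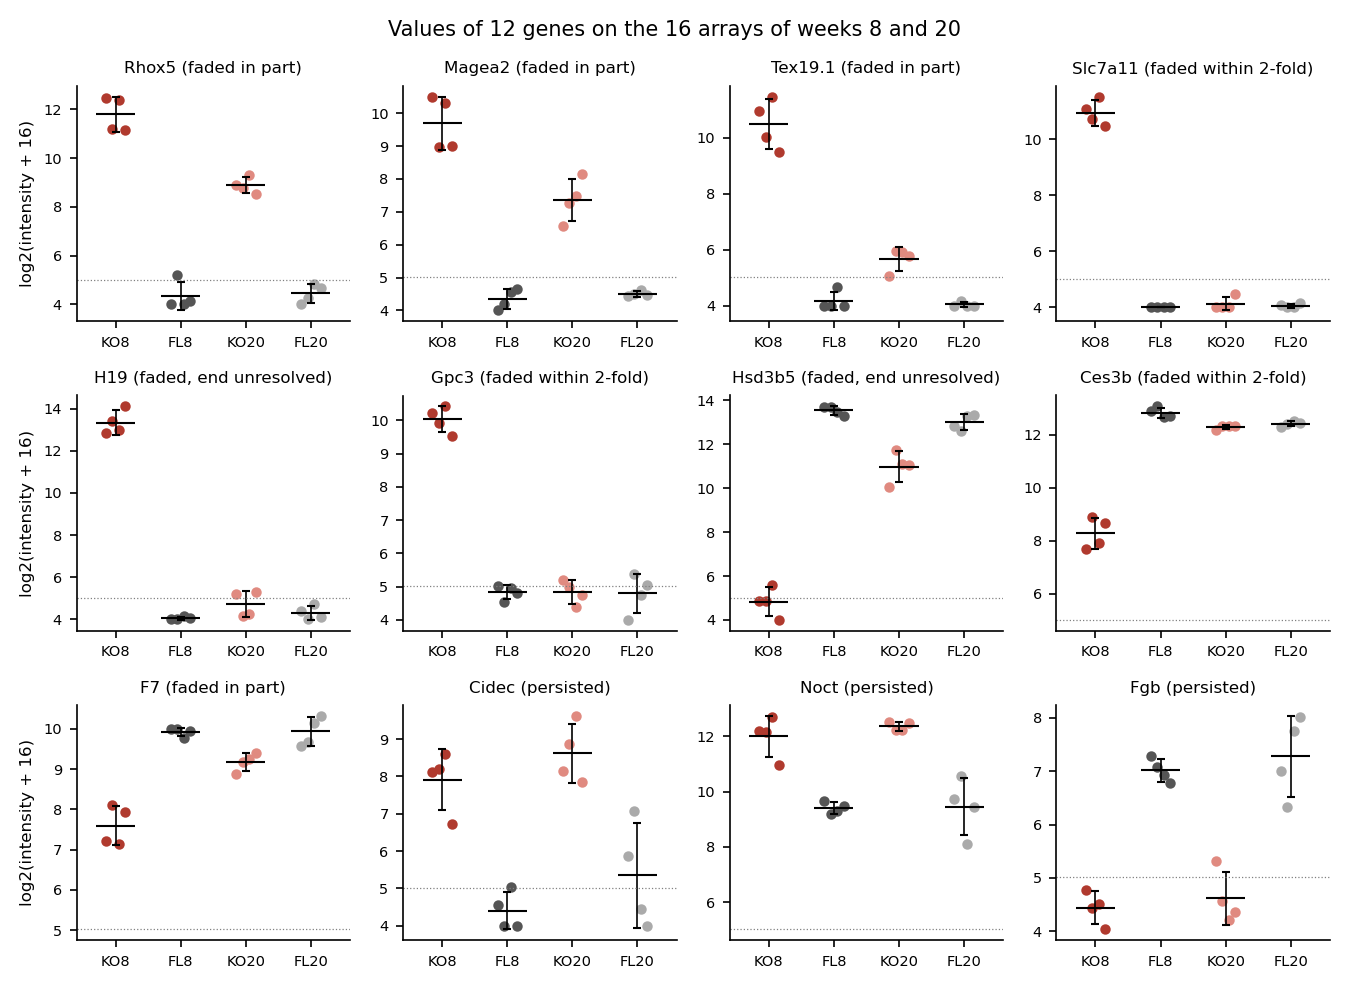
Values of 12 genes on the 16 arrays, as log2(intensity + 16), with knockout (KO) left of control (FL) at week 8 and then at week 20; points are arrays, bars are the mean and SD, and the dotted line is the background threshold. Rhox5, Magea2 and Tex19.1 stop part of the way, Slc7a11, H19, Gpc3 and Ces3b overlap their controls at week 20, and Noct and Fgb stay apart from them. The end point is unresolved for H19, and for Gpc3 without control arrays 3 and 4 of week 20.

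Genes of inflammation, scarring and stress defence had smaller knockout effects at week 20. Cd68, a lysosomal glycoprotein of macrophages, read 869.8, 641, 1430 and 1009 in knockout and 113, 142, 113 and 124 in control livers at week 8. By week 20 it read 185, 89.0, 119.6 and 132 in knockout and 132, 70.8, 262 and 250.1 in control livers, which overlapped. Of 30 measured macrophage markers 27 were higher and 1 lower at week 8, 27 had a negative interaction, and at week 20 Gpnmb and Cd63 were higher and Cd163 lower. Both other Cd63 probes did not pass at week 20, with 0.34 and 0.36 (limma adjusted p = 0.464 and 0.345). Over all genes tested 3.44% were higher and 2.23% lower at week 20. The summed intensity of 7 defining macrophage markers was 11480 to 19180 in knockout and 3024 to 3970 in control livers at week 8, and 2489 to 5456 in knockout and 2270 to 5222 in control livers at week 20. In bulk liver RNA a change in the number of cells of a type and a change in RNA per cell cannot be told apart. The marker sums of other cell types moved too. For 4 neutrophil markers the sum was 779 to 1800 in knockout and 16.3 to 67.1 in control livers at week 8, and 136 to 413 in knockout and 67.5 to 574 in control livers at week 20. For 5 stellate cell and fibroblast markers it was 479 to 633 in knockout and 228 to 406 in control livers at week 8, and 196 to 326 in knockout and 334 to 406 in control livers at week 20. Of these 5, 3 were higher at week 8, and at week 20 only Lrat was called, as lower. Col1a1 and Col3a1 were at background on all control arrays of both ages and add little to the control sums. The lower sum at week 20 therefore does not speak for all 5 markers. The part of these shifts in the other results was not tested.

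Of 33 measured stellate cell and matrix genes 30 were higher at week 8 and 28 had a negative interaction. At an unadjusted p under 0.05, 17 were still higher and 3 lower at week 20. Of the 27 with at least 2-fold change at week 8, 11 faded to within 2-fold, 11 had an unresolved end point and 2 faded in part. At week 20 Lum, the matrix proteoglycan lumican, and Mmp2, a matrix-cleaving protease, were higher, with 0.97 ± 0.22 and 1.27 ± 0.18, and Col4a2, a basement membrane collagen, and Lrat, which stores retinol in stellate cells, were lower, with -0.65 ± 0.19 and -1.08 ± 0.27. The median difference of the list was 1.87 at week 8 and 0.49 at week 20, where it was 0.00073 over all genes. Among 34 interferon response genes 28 were higher and 1 lower at week 8, 27 had a negative interaction and 1, Ifi27, was higher at week 20. Oas1g, an antiviral oligoadenylate synthetase, differed by 4.12 ± 0.22 at week 8 and 0.42 ± 0.22 at week 20. Among 34 NRF2 targets and glutathione genes 26 were higher and 3 lower at week 8, and at week 20 Gsta1 and Gsta2 were higher and Gstp1 lower.

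Some lymphoid and antigen presentation genes were still higher at week 20. Of 8 measured MHC class II genes 7 were higher at week 8, 2 had a negative interaction, and at week 20 2 were higher, the antigen-presenting chain H2-Eb1 with 1.22 ± 0.25 at week 8 and 1.18 ± 0.25 at week 20 and the invariant chain Cd74 with 1.22 ± 0.26 and 0.87 ± 0.26. The median of the list was 1.22 at week 8 and 0.73 at week 20. A second Cd74 probe did not pass at week 20, with 0.82 (limma adjusted p = 0.0609). Among 16 T and NK cell markers 10 were higher at week 8, and at week 20 3 were higher and 1 lower. The 3 higher ones were Ccl5, a chemokine, Klrd1, an NK receptor, and Zap70, a T cell receptor kinase. Of the defining markers Cd3e, Cd3g and Nkg7, 2 were higher at week 8 by limma. At week 20 and in the interaction 0 of them passed. The summed intensity of the 3 measured defining T and NK markers was 76.2 to 133 in knockout and 18.9 to 57.2 in control livers at week 8. At week 20 the sum was 40.5 to 73.2 in knockout and 9.57 to 30.3 in control livers. Cd3e, Cd3g and Nkg7 were at background on all control arrays of week 20, and Nkg7 also on those of week 8. Markers this dim in control livers pass the filter only through other arrays, knockout arrays among them. The gap between the sums is therefore partly built in and does not by itself show a lasting effect.

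Lcn2, an iron-binding acute phase protein, depended on the same 2 control arrays. It read 10960, 14180, 14480 and 7159 in knockout and 66.3, 231, 123 and 103 in control livers at week 8. At week 20 it read 2793, 1667, 569 and 996 in knockout and 87.0, 124, 28950 and 30740 in control livers. All knockout arrays of week 20 lay above control arrays 1 and 2 and below arrays 3 and 4. The week 20 difference was -0.55 ± 1.196 with all arrays (limma adjusted p = 0.835) and 3.43 without those 2 (adjusted p = 3.07e-04), which moves Lcn2 to the effects that faded in part. The interaction was -6.93 ± 1.69 with all arrays and -2.95 without those 2.

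**Figure D5:**
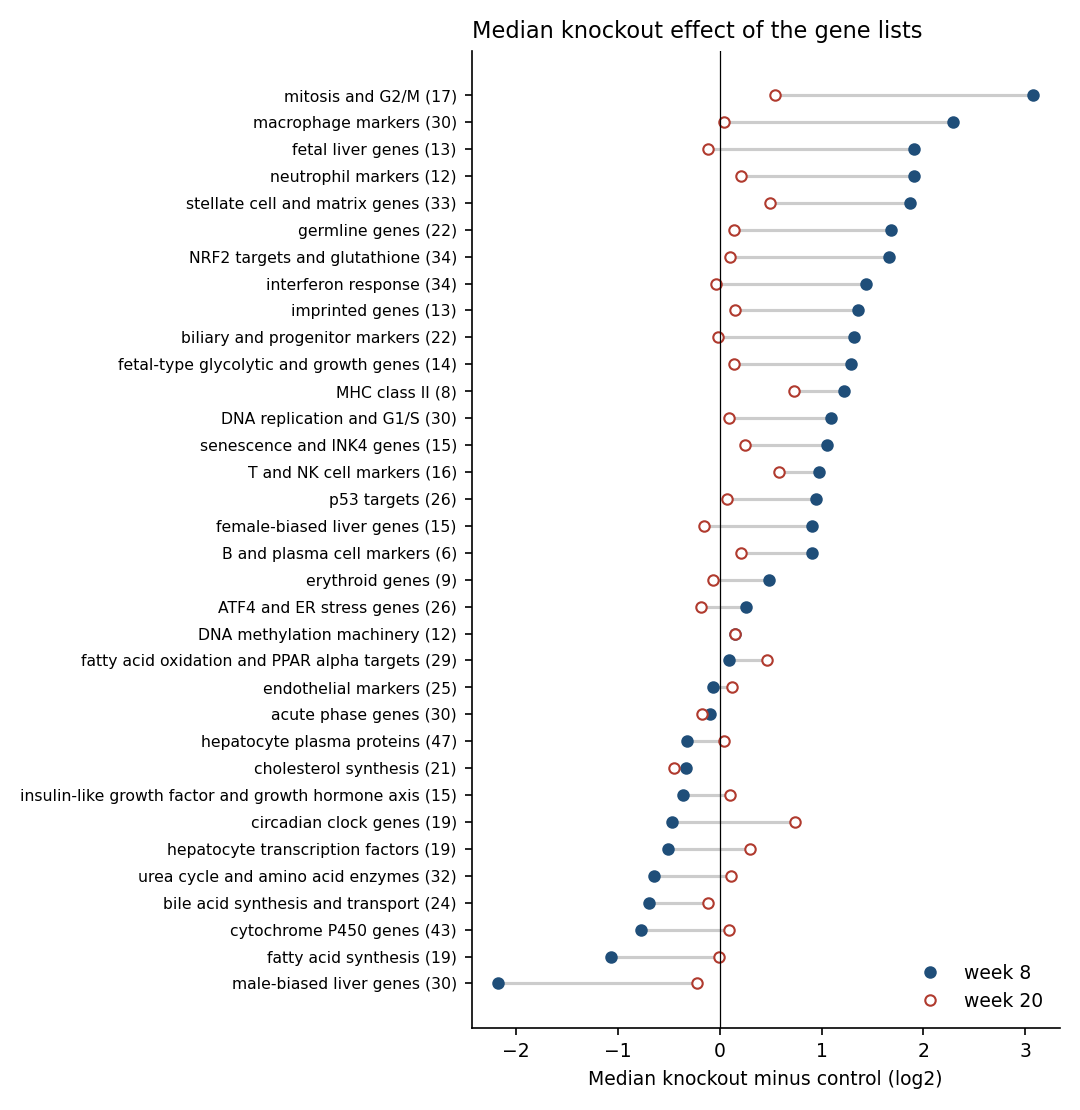
Median knockout minus control difference of each gene list at week 8 (filled circles) and week 20 (open circles), on the log2 scale, with the number of measured genes in parentheses. Macrophage and fetal liver genes move from the right to near 0 and male-biased genes from the left to -0.22, the mitosis, stellate, MHC class II and T and NK cell lists end between 0.49 and 0.73, and the circadian and PPAR alpha lists also end above 0.

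On the lower side, genes of mature hepatocytes recovered. Ces3b, a liver carboxylesterase, read 189, 459, 227 and 394 in knockout and 7612, 8660, 6540 and 6643 in control livers at week 8. Its week 20 values were 4682, 5207, 5182 and 5135 in knockout and 5024, 5461, 5835 and 5541 in control livers. The difference was -4.55 ± 0.32 at week 8 and -0.11 ± 0.32 at week 20, with an interaction of 4.43 ± 0.46 (limma adjusted p = 1.43e-07). Ugt2b1, a glucuronosyltransferase of steroid and drug clearance, read 229, 377, 173 and 468 in knockout and 3999, 4873, 4261 and 3718 in control livers at week 8, and 1632, 2247, 2319 and 2023 in knockout and 2945, 2707, 2110 and 2185 in control livers at week 20. Both genes were below every control array at week 8, and both overlapped their controls at week 20.

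Among 43 measured cytochrome P450 genes 26 were lower and 6 higher at week 8, 22 had a positive and 3 a negative interaction, and at week 20 Cyp4a14 was higher and Cyp2u1 lower. The week 20 counts lie near the 3.44% higher and 2.23% lower of all genes tested. Of 19 hepatocyte transcription factors 12 were lower at week 8, among them Cebpa with -1.28 ± 0.15 and Nr1i3, the xenobiotic receptor CAR, with -1.61 ± 0.26. At week 20 0 of the 19 were called by limma, with 6 higher and 1 lower at an unadjusted p under 0.05, and the interaction was positive in 13. Of 32 urea cycle and amino acid enzymes 18 were lower and 1 higher at week 8, 14 had a positive interaction and 0 were called at week 20, where 2 were higher and 1 lower at an unadjusted p under 0.05.

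The lowest week 8 difference of all belonged to a male-biased liver gene. Hsd3b5, a steroid dehydrogenase of adult male mouse liver, read 13.6, 13.3, 32.3 and -0.65 in knockout and 13190, 13350, 11410 and 10030 in control livers at week 8. The week 20 readings were 1043, 3378, 2178 and 2098 in knockout and 7268, 6217, 9876 and 10360 in control livers. At week 8 only knockout array 3 was above background, and at week 20 every knockout array was high but still below every control array. The week 20 difference of -2.03 ± 0.66 did not pass (limma adjusted p = 0.0707), and the interaction was 6.67 ± 0.94 (adjusted p = 8.15e-06). Mup4, a major urinary protein gene whose probe may also read its close relatives, differed by -6.64 ± 0.42 at week 8 and -1.32 ± 0.42 at week 20, and Elovl3, a fatty acid elongase, by -5.95 ± 0.41 and -0.43 ± 0.41. Of 30 measured male-biased genes 26 were lower and 1 higher at week 8, 21 had a positive and 1 a negative interaction, and 3 were lower at week 20. The mean log2 value of the list was 8.69 to 9.22 on the knockout and 11.3 to 11.8 on the control arrays of week 8, and 11.1 to 11.2 on the knockout and 11.03 to 11.8 on the control arrays of week 20. The array without Y-linked signal had 8.69, and the other 3 knockout arrays of week 8 had 8.81 to 9.22, all below the controls.

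Of 19 measured fatty acid synthesis genes 15 were lower at week 8 and 1 was higher at week 20, and the interaction was positive in 11, or in 5 without control arrays 3 and 4 of week 20. The median difference of the list was -1.07 at week 8 and -0.0045 at week 20. Thrsp, a lipogenic regulator, read 60.5, 57.8, 88.2 and 147 in knockout and 11110, 6440, 1876 and 5035 in control livers at week 8, and 2612, 3837, 7612 and 2164 in knockout and 3051, 12580, 1700 and 1149 in control livers at week 20. Rgs16, a rhythmic G protein regulator, read 11.4, 18.6, 6.86 and 65.8 in knockout and 3061, 1876, 1344 and 3567 in control livers at week 8. By week 20 it read 138, 366, 2438 and 1110 in knockout and 1682, 3355, 17.3 and 21.2 in control livers, so control arrays 3 and 4 were near background and arrays 1 and 2 were not. Its week 20 difference was 1.13 ± 1.05 with all arrays and -1.91 without those 2, and passed in neither case (limma adjusted p = 0.572 and 0.182). The hour at which livers were taken is not given in the labels. Of 19 clock genes 7 were lower and 1 higher at week 8, 6 had a positive interaction (3 without those arrays), and only Noct was called at week 20. Over all genes tested 24.0% were lower at week 8, 14.2% had a positive interaction and 3.44% were higher at week 20.

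A few lowered genes recovered in part. Susd4, a complement regulator, read 10.4, 25.5, 12.5 and 24.9 in knockout and 426, 510.5, 356 and 239 in control livers at week 8. At week 20 it read 91.2, 247, 249 and 88.2 in knockout and 806, 565, 540.5 and 611 in control livers, with no overlap and a difference of -1.94 ± 0.31 (limma adjusted p = 5.89e-04). F7, coagulation factor VII, read 134, 259.9, 124 and 229 in knockout and 1001, 1001, 865 and 965 in control livers at week 8, and 459, 562, 595 and 658 in knockout and 753, 807, 1125 and 1271 in control livers at week 20. Its week 20 difference of -0.76 ± 0.21 passed (limma adjusted p = 0.0375) but was -0.46 without control arrays 3 and 4 (adjusted p = 0.362). Without them, 4 of the 14 lower genes kept this class.

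Persisting effects were few and of mixed kind. Noct, nocturnin, an enzyme whose transcript cycles with the clock, read 4618, 4588, 6686 and 1982 in knockout and 797, 562, 608 and 697 in control livers at week 8. Its week 20 values were 5870, 4751, 4817 and 5654 in knockout and 834, 1494, 259 and 676 in control livers. The groups did not overlap at either age, and the difference was 2.60 ± 0.40 at week 8 and 2.90 ± 0.40 at week 20 (limma adjusted p = 8.70e-05). Wfdc15b, a small secreted protein of the whey acidic protein family, read 248, 414, 254 and 319.8 in knockout and 2.49, 2.37, 13.3 and -3.64 in control livers at week 8, and 428, 56.1, 116 and 200.2 in knockout and -5.93, 4.84, -7.25 and 0.24 in control livers at week 20. It was at least 18.5-fold higher at week 8 and at least 9.40-fold at week 20.

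Cidec, a lipid droplet protein of fat-storing cells, read 261, 279, 370.5 and 90.8 in knockout and 7.32, -11.6, 16.7 and -3.32 in control livers at week 8. The week 20 readings were 268, 451, 775 and 216 in knockout and 42.8, 119.7, 5.81 and -1.42 in control livers, with a difference of 3.27 ± 0.59 (limma adjusted p = 0.00172) that was 2.15 without control arrays 3 and 4 (adjusted p = 0.0605). Fmr1nb, a cancer-testis antigen gene next to Fmr1, read 279.6, 139, 398 and 156 in knockout and 46.4, 0.37, 37.3 and -11.9 in control livers at week 8, and 206, 83.9, 97.0 and 24.1 in knockout and 20.9, 7.12, -1.29 and -0.19 in control livers at week 20. Its difference of 2.21 ± 0.46 at week 20 was 1.78 without those arrays and did not pass (adjusted p = 0.0922). An interaction that did not pass does not show that an effect was equal at both ages: for Fmr1nb the interaction was -0.76 ± 0.66 and for Cidec -0.25 ± 0.83.

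On the lower side Fgb, the fibrinogen beta chain, read 11.5, 5.61, 6.81 and 0.38 in knockout and 139.9, 118, 106 and 94.5 in control livers at week 8. By week 20 it read 24.1, 7.74, 2.61 and 4.45 in knockout and 112, 64.8, 202 and 243 in control livers, with no overlap at either age and differences of -2.58 ± 0.29 and -2.66 ± 0.29. Of the knockout values only the 24.1 of week 20 was above background. Both differences are therefore limited by the floor, and their likeness does not show an equal effect at both ages. Sult5a1, a sulfotransferase, read 12.1, -8.07, 5.07 and -0.51 in knockout and 67.7, 201, 149 and 299.9 in control livers at week 8, and 23.2, 18.1, 7.05 and 3.36 in knockout and 73.2, 134, 193 and 116 in control livers at week 20. Its knockout values were likewise at or near background. Cd163, the haemoglobin scavenger receptor of macrophages, was lower in knockout while most macrophage markers were higher. It read 47.9, 32.3, 41.3 and 28.6 in knockout and 148, 156, 123 and 199.8 in control livers at week 8, and 49.8, 48.7, 52.5 and 55.9 in knockout and 81.6, 116, 366 and 360 in control livers at week 20. Without control arrays 3 and 4, its 2 highest, the week 20 difference was -0.75 and did not pass (limma adjusted p = 0.111). Of the 56 higher and 33 lower persisting genes, 16 and 18 kept the class without those arrays, among them Noct, Wfdc15b, Fgb and Sult5a1.

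Some genes changed sign or became different only at week 20. Lpin1, a phosphatidate phosphatase of fat metabolism, read 266, 584, 268 and 400.4 in knockout and 2380, 2649, 1654 and 2252 in control livers at week 8. At week 20 it read 1998, 1700, 2500 and 2335 in knockout and 619, 2017, 142 and 450.3 in control livers, so a difference of -2.56 ± 0.45 at week 8 stood against 1.94 ± 0.45 at week 20 (limma adjusted p = 0.0118). Igf2bp2, an RNA-binding protein, went the other way, with 149, 92.7, 99.5 and 79.1 in knockout and 10.1, 8.22, 34.3 and 63.3 in control livers at week 8, and 3.16, 6.06, 22.2 and 19.9 in knockout and 54.3, 23.4, 46.7 and 66.2 in control livers at week 20. Without control arrays 3 and 4 of week 20 none of the 14 turned genes kept this class, and the week 20 difference was 0.90 for Lpin1 (adjusted p = 0.217) and -0.93 for Igf2bp2 (adjusted p = 0.218).

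A total of 57 genes was higher and 38 lower at week 20 with a passing interaction in the same direction and no call at week 8. Fkbp5, a glucocorticoid-induced co-chaperone, read 538, 466, 485 and 196 in knockout and 241, 382, 354 and 289 in control livers at week 8. Its week 20 values were 754, 504, 932 and 919 in knockout and 70.0, 306, 125 and 192 in control livers, a difference of 2.19 ± 0.32 (limma adjusted p = 1.69e-04) that held without control arrays 3 and 4 (2.21, adjusted p = 0.00264). Plin4, a lipid droplet coat protein, read 269, 326, 119 and 93.7 in knockout and 146, 238, 241 and 91.6 in control livers at week 8, and 572, 611, 1273 and 879 in knockout and 199.6, 315, 36.1 and 157 in control livers at week 20. Its week 20 difference was 2.34 ± 0.55, and 1.595 without those arrays, where it did not pass (limma adjusted p = 0.176). Ppp1r3c, which tethers a phosphatase to glycogen, read 3925, 2732, 5480 and 2314 in knockout and 4537, 5330, 5936 and 3269 in control livers at week 8, and 1302, 950.5, 2147 and 977 in knockout and 2873, 3999, 5015 and 3383 in control livers at week 20. Without those arrays its interaction was -0.96 and did not pass (limma adjusted p = 0.0724). Of the gained genes, 10 higher and 10 lower ones kept the class without those arrays.

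Of 29 measured fatty acid oxidation and PPAR alpha target genes 6 were higher and 5 lower at week 8, and 7 were higher at week 20. Over all genes tested 24.9% were higher and 24.0% lower at week 8, and 3.44% were higher at week 20. Those 7 were Acot1, an acyl-CoA thioesterase, Cyp4a14, a fatty acid hydroxylase, the droplet proteins Plin4, Plin5, Cidea and Cidec, and Angptl4, a lipase inhibitor. The interaction was positive in 8 and negative in 1, and in 5 and 3 without control arrays 3 and 4. Without those 2 control arrays Plin4 and Cidec did not pass at week 20 (limma adjusted p = 0.176 and 0.0605). A second Plin5 probe did not pass at week 20 with all arrays. The list's median difference was 0.089 at week 8 and 0.46 at week 20.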

How the data were processed

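Biotinylated cRNA from the total RNA of 24 mouse livers was measured on an Illumina array, per the labels' protocols. The deposited values are linear intensity for 25697 probes, processed by the authors in GenomeStudio 2011 per the submitters' processing notes. Of these 27.8% were below 0 and the sorted columns differed by at most 0.82%, the form of background-subtracted and quantile-normalized data, so no further normalization was done. A non-normalized table has 48 value columns (24 of signal) whose names match no label. They were not used, apart from its pairing of probe and symbol.

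Negative values were raised to 0 before the transform log2(intensity + 16). The noise SD was 7.03 (root mean square of negative values) and background 2.33 times that, 16.37. Per array 12176 to 12262 probes were above it. Probes above it on at least 4 arrays (14511) were kept, and the probe of highest mean per gene gave 10728 genes. A gene silent in control livers could pass only through knockout arrays, which favours higher genes in the list counts. Symbols were updated through RefSeq (GRCm38.p6): 20733 symbols were current, 3875 were replaced by the current one, 1057 stayed as in the file and 32 damaged symbols were left unnamed.

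A single model held 6 group means (limma 3.58.1, R 4.3.3, eBayes with trend), two-sided, with Benjamini-Hochberg adjustment. The fit was tested on simulated data. Alternatives were other offsets, filters, normalization, arrays, weights and limits. Named genes were, per class and direction, the 8 of largest week 8 (gained: week 20) difference whose arrays do not overlap, 5 members per list of largest interaction, and a fixed set; not all are printed. Where 5 or fewer members of a list passed at week 20, those printed by name outside this rule (such as Bicc1, Mbd4, Gsta2 and Mmp2) were chosen after their values were seen. Members, lists and rules were chosen with earlier results of these data known. The result of 1 gene is not reported here.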

Additional observations from a re-analysis of the deposited data

Results flagged for a closer look

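The knockout effect differed between week 8 and week 20 in 1525 genes with a positive and 1816 with a negative interaction (limma, adjusted over 10728 genes, here and for the p-values that follow). Among single genes the interaction passed for H19 (-8.86), Lcn2 (-6.93), Slc7a11 (-6.89), Igf2 (-6.58), Gpc3 (-5.15), Tex19.1 (-4.69), Afp, the fetal serum protein (-3.74), Cdkn1a (-3.66), Uhrf1 (-3.33), Rhox5 (-3.03) and Hsd3b5 (6.67). Without control arrays 3 and 4 of week 20 it was -2.95 for Lcn2 and -2.02 for Cdkn1a, and both still passed. It also passed for the sex chromosome transcripts Xist (-1.26, adjusted p = 0.0326) and Usp9y (-1.53, adjusted p = 0.0338). For Xist, knockout array 4 of week 8 read 131 and the other 15 arrays -0.40 to 42.7. Without that array the Xist interaction was -0.90 (adjusted p = 0.0831). Usp9y read 83.4, 19.4, 49.2 and -8.05 in knockout and -6.96, -8.62, -1.98 and -8.86 in control livers at week 8, where knockout array 4 again lay apart, and without control arrays 3 and 4 of week 20 its interaction was -1.31 (adjusted p = 0.118).

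In 6 of 177 groups of 4 arrays 1 array lay far from the other 3, where chance gives about 1 in 20. The groups came from 36 genes and 14 array summaries, and 23 groups with no array above background were left out. Rhox5 read 20.8 on control array 3 of week 8, against -3.76 to 1.39 on the other controls, which is near background. Igf2bp3 read 524 on knockout array 1 of week 8, against 342 to 345 on the others. Igf2 read 32.7 on control array 2 of week 20, against 17.4 to 18.4. Ces3b read 4682 on knockout array 1 of week 20, against 5135 to 5207. Fkbp5 read 196 on knockout array 4 of week 8, against 466 to 538. The mean log2 value of the male-biased genes was 11.18 on knockout array 2 of week 20, against 11.06 to 11.08.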

How the results depend on the processing

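The call counts of week 8 and of the interaction stayed within 1.5 times of those reported under each alternative, and 0 genes that passed in both had an interaction of opposite sign in any of the 28 refits. Leaving out 1 of the 16 arrays gave 1344 to 1606 positive and 1606 to 1862 negative interactions, 2373 to 2690 higher and 2253 to 2611 lower genes at week 8, and median shares kept of 11.7% to 15.6% and 5.87% to 11.3%. It gave 181 to 417 higher and 100 to 303 lower genes at week 20. For higher genes the classes ran over 718 to 833 (faded to within 2-fold), 194 to 304 (end unresolved), 54 to 95 (in part), 31 to 71 (persisted), 0 to 12 (turned), 201 to 253 (undecided) and 25 to 88 (gained). For lower genes they ran over 419 to 537, 82 to 120, 4 to 22, 26 to 39, 4 to 13, 112 to 154 and 12 to 58 in the same order. Counts moved by over 1.5 times without 1 array of week 20 for gained genes (25 and 16 without control array 3, 31 and 12 without control array 4, 29 and 15 without knockout array 2, 19 lower without knockout array 3, 88 and 58 without control array 1), persisted higher genes (31 without control array 3, 37 without control array 4) and higher genes that faded in part (57 without control array 3, 54 without knockout array 1). The 14 lower genes that faded in part became 4 to 7 without control arrays 3 or 4 or knockout arrays 1, 2 or 3 of week 20, 8 or 9 without control arrays 3, 4 or 5 of week 8, and 22 without knockout array 4 of week 8. The 7 turned higher genes became 0 without control array 3 or 4 or knockout array 2 of week 20, 2 without knockout array 3, 4 without knockout array 1 and 12 without control array 1, and the 7 turned lower genes became 4 without control array 4 and 13 without control array 2 of week 20 and 12 without knockout array 2 of week 8.

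Without control arrays 3 and 4 of week 20 the counts were 194 and 112 at week 20, 6 in part (lower), 28 and 18 gained and 314 and 197 undecided, with shares of 17.97% and 16.3%. Without knockout array 4 of week 8 as well, an alternative chosen after seeing the data, they were 198 and 121, 27 and 18 gained, 335 and 199 undecided, with a share of 15.02% for lower genes. With no filter on dim probes 240 and 150 genes passed at week 20, and 53 and 6 faded in part, 1 turned (higher) and 281 were undecided (higher). With only weeks 8 and 20 in the fit 144 were lower at week 20, 37 and 20 gained and 4 turned (higher). An offset of 4 gave 493 faded to within 2-fold (higher), 514 and 199 unresolved, 12 turned (higher) and 437 and 377 undecided. An offset of 50 gave 50 and 58 unresolved, 25 and 20 persisted, 2 turned (lower) and 36 and 31 undecided. A floor of 1 with a second quantile normalization gave 441 faded to within 2-fold (higher), 474 and 234 unresolved and 511 and 437 undecided. Array weights left 7 in part (lower) and a fit with no trend 4 turned (higher). A threshold of 0.01 gave 34 and 3 in part, 17 and 8 gained, 27 and 21 persisted, 0 and 3 turned and 404 and 219 undecided. A size limit of 1.5-fold gave 938 faded to within 2-fold (lower), 89 and 87 persisted, 11 and 27 turned and 538 and 710 undecided. A limit of 3-fold gave 401 and 131 faded to within 2-fold, 9 in part (lower), 22 and 8 persisted, 1 and 2 turned and 25 and 9 undecided.

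Replicate numbers did not pair the arrays, since the correlation of deviations of same-numbered knockout and control arrays was -0.15 to 0.041 over 7 pairs. With the replicate block as a random effect (consensus correlation -0.044), 1755 negative and 1473 positive interactions passed and 9 lower genes faded in part (14 without the block), while every other count stayed within 1.5 times. Of 251 named genes 215 had a called value, and 165 of these passed under every alternative. Apart from fewer arrays or a stricter threshold, the cause was not tested. The 4 arrays per group limit the precision.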

Other observations

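Of 22 measured biliary and progenitor markers 15 were higher and 1 lower in knockout at week 8 and 15 had a negative interaction, and at week 20 Bicc1, an RNA-binding protein of epithelial tubes, and Anxa5, a phospholipid-binding annexin, were higher with 1.46 ± 0.25 and 0.57 ± 0.10. Cldn4, a tight junction claudin, differed by 5.001 ± 0.38 at week 8 and 0.34 ± 0.38 at week 20. Of 15 senescence and INK4 genes 9 were higher and 1 lower at week 8 and 6 had a negative interaction. At week 20 0 were called by limma, with 4 higher at an unadjusted p under 0.05. Of 12 neutrophil markers 11 were higher at week 8 and 8 had a negative interaction, and at week 20 0 were called, with 0 also at an unadjusted p under 0.05. S100a8, a calcium-binding protein of neutrophils, differed by 4.24 ± 0.58 at week 8 and 0.083 ± 0.58 at week 20. Of 14 fetal-type glycolytic and growth genes 11 were higher and 1 lower at week 8, and 1 at week 20. In the ATF4 and ER stress list, 8 of 26 were higher and 6 lower at week 8, near the 24.9% and 24.0% of all genes tested. At week 20 3 were lower, namely Atf5, Dnajb9 and Edem1. Asns, the asparagine synthetase that ATF4 induces, differed by 3.44 ± 0.61 at week 8 and -1.42 ± 0.61 at week 20, where it did not pass (limma adjusted p = 0.17).

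Of 47 plasma protein genes 21 were lower and 3 higher at week 8, 17 had a positive and 1 a negative interaction and 4 were lower at week 20, namely Alb, F7, Fgb and Gc. Of 24 genes of bile acid synthesis and transport 13 were lower and 4 higher at week 8 and 10 had a positive and 2 a negative interaction. The cholesterol synthesis genes had a median of -0.33 at week 8 and -0.45 at week 20, and Mvd, a decarboxylase of the mevalonate pathway, had a difference of -1.64 ± 0.47 at week 20 (limma adjusted p = 0.0396) with no call at week 8 (0.21 ± 0.47). Of 15 female-biased genes 6 were higher at week 8 and 7 had a negative interaction, among them Cyp2b9 with 3.98 ± 0.86 at week 8 and -1.27 ± 0.86 at week 20. Among 12 genes of the DNA methylation machinery 3 were higher and 2 lower at week 8, near or below the 24.9% and 24.0% of all genes tested. At week 20 Mbd4, a DNA glycosylase, and Zbtb38, a methyl-CpG binding protein, were higher with 0.88 ± 0.25 and 1.10 ± 0.28. Dnmt3b, a de novo methyltransferase, had an interaction of -0.71 ± 0.50 that did not pass (limma adjusted p = 0.304).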
